A study of Mus musculus with 6 samples.

Results

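Transcripts of 9 genes of the Hedgehog pathway were measured in sorted cells of the mouse dental follicle: the Gli transcription factors Gli1, Gli2 and Gli3, the receptor Ptch1, the ligand-binding antagonist Hhip, the signal transducer Smo and the co-receptors Gas1, Boc and Cdon. They were chosen by gene symbol as a set of Hedgehog receptors, co-receptors and Gli factors, and all 9 were among the 17213 genes of the count table and among the 14632 genes that passed the filter on low counts. The 6 libraries came from mandibular molars of mice at postnatal day 8: 3 libraries labelled KO, with the genotype Pth1r(-/-), and 3 labelled Het, with the genotype Pth1r(+/-). Pth1r encodes the receptor of parathyroid hormone and of PTHrP, and the series text describes both genotypes as conditional, so that the comparison group also carries a conditional loss of 1 copy. Both groups received tamoxifen, dated to day 3 in the series text and to day 8 in the sample descriptions, and in both the cells were sorted for the red reporter tdTomato as PTHrP+ cells. The labels used here do not name the Cre driver or say how many animals went into a library. If the replicates were technical, the p-values would cover technical spread alone.

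In Hedgehog signalling a secreted ligand (Shh, Ihh or Dhh) binds Ptch1, which otherwise holds Smo inactive at the primary cilium. Active Smo turns Gli2 and Gli3 away from their processing into repressors and towards activation, and Gli1, Ptch1 and Hhip are themselves targets that rise when the pathway is on. Protein kinase A, the enzyme that cAMP from receptors such as Pth1r activates, phosphorylates Gli3 and Gli2 and favours the repressor forms. In teeth Shh comes from the dental epithelium and acts on the neighbouring mesenchyme, and Gli1 is widely used as a marker of mesenchymal progenitors around the tooth.

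Libraries held between 34019925 and 66147200 counts. The targeted gene went against the labels: Pth1r was at 961, 608 and 472 CPM (counts scaled to library size and composition) in KO replicates 0, 1 and 2, against 371, 286 and 346 CPM in Het replicates 0, 1 and 2. Its log2 fold change was 1.02 (SE 0.28), with an unadjusted p of 0.00489 and an adjusted p of 0.740 in edgeR's quasi-likelihood test. The adjusted p in DESeq2 was 0.0554, the groups did not overlap, and the sign held in all 17 alternative fits. Counts over the whole gene do not show which exons were read. KO and Het below name the labels only, and every direction is between libraries so labelled. Pthlh, which encodes PTHrP, was at 298 to 350 CPM in KO and 260 to 344 CPM in Het libraries. The 14 listed follicle and mesenchymal genes, led by Col1a1 and Col3a1, summed to 50443 to 87487 CPM in KO and 34966 to 70153 CPM in Het libraries. The collagens dominate that sum: 5 of the 14 had a higher and 9 a lower fitted value in KO. Het replicate 2 stood apart on the first principal component, which held 38.6% of the variance, and had the lowest value of all 6 libraries for 29.6% of genes and the highest for 28.0%.

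None of the 9 Hedgehog genes was called different between KO and Het, and for all 9 the values of the groups overlapped. In edgeR's quasi-likelihood test 0 of 9 passed an adjusted p of 0.05, where 0% of all 14632 genes passed, and 0 of 9 had an unadjusted p under 0.05, against 4.29% of all genes. DESeq2 also called 0 of 9, against 0.519% of the genes it tested. The groups did not overlap for 0 of the 9, against 10.7% of all genes, of which 5.84% were higher and 4.83% lower in KO. Fitted values were higher in KO for 5 members (Gli1, Ptch1, Smo, Gas1 and Boc) and lower for 4 (Gli2, Gli3, Hhip and Cdon), with a median log2 fold change of 0.15 against -0.01 over all genes tested.

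**Figure D1:**
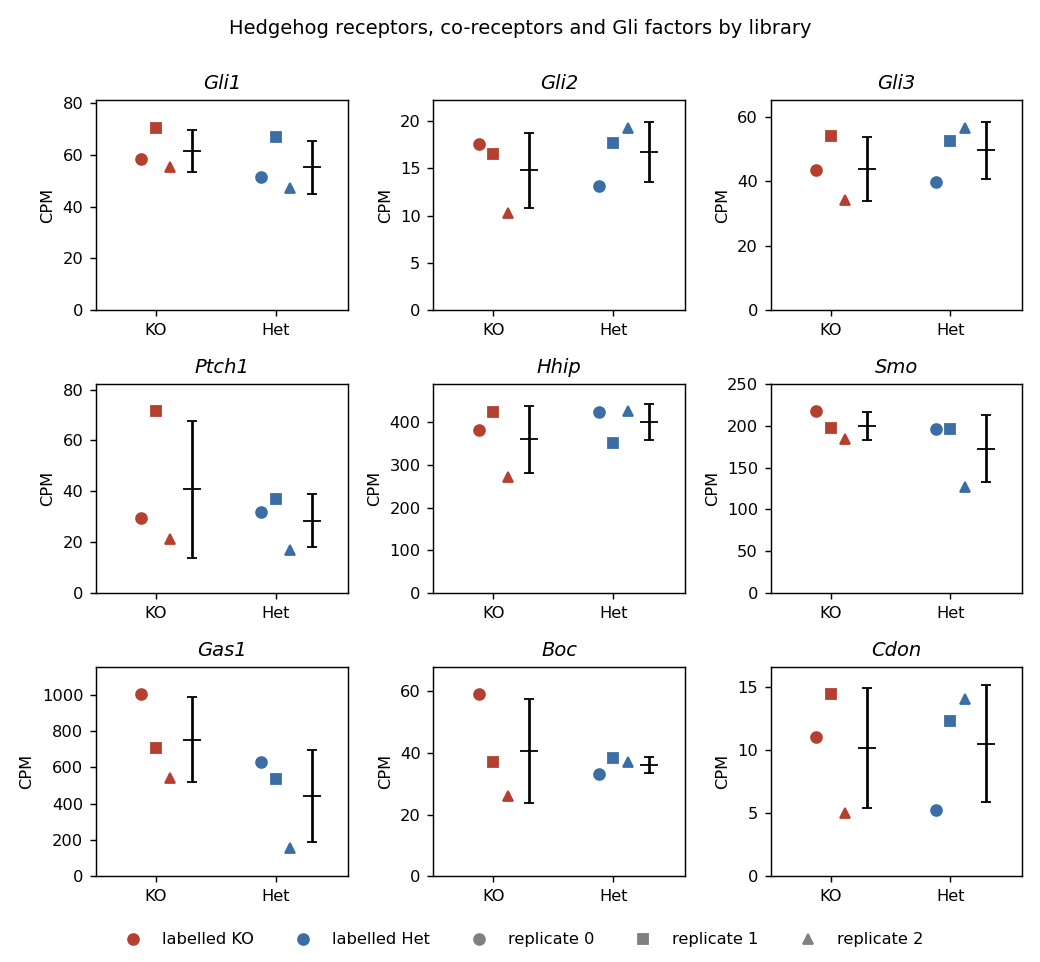
CPM (y axis, from 0) of each of the 9 genes in the 3 KO (red, left) and 3 Het (blue, right) libraries, with marker shapes for replicate numbers and, beside them, the mean and SD of each group (n = 3). The groups overlap in all 9 panels; the widest spreads are those of Gas1, from 154 to 1003 CPM, and Ptch1, from 16.8 to 71.6 CPM.

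Levels between genes were compared per length, in FPKM, the authors' deposited unit, in which fragments are divided by the length of the gene and the size of the library. Gas1 was the most abundant, with a mean of 251 FPKM over the 6 libraries and a range of 56.2 to 410 FPKM. Smo followed at 50.4 FPKM, Hhip at 35.6 FPKM and Gli1 at 17.1 FPKM. Boc at 8.74 and Ptch1 at 8.27 FPKM could not be separated, since their ranges of 6.54 to 12.8 and 4.04 to 17.2 FPKM overlapped. Gli3 averaged 4.92 FPKM, Gli2 2.38 FPKM and Cdon 1.30 FPKM.

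Among the Gli factors, Gli1 was above Gli3 with no overlap of their ranges, 14.2 to 19.5 against 2.998 to 6.20 FPKM. The FPKM of Gli3 was above that of Gli2 in 6 of 6 libraries, although their ranges over libraries overlapped. Of the neighbours in the order, Gli1 and Boc alone had ranges that did not overlap. Gas1 was nonetheless above Smo within each of the 6 libraries, as was Smo above Hhip. Divided by merged exon length instead of the authors' length, an alternative chosen after seeing the data, Hhip (41.9 CPM per kilobase) came before Smo (33.1), and Gli3 (4.87) before Ptch1 (2.45). On that scale Boc (5.85 to 13.2) and Ptch1 (1.19 to 5.05) had ranges that did not overlap, unlike in FPKM.

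**Figure D2:**
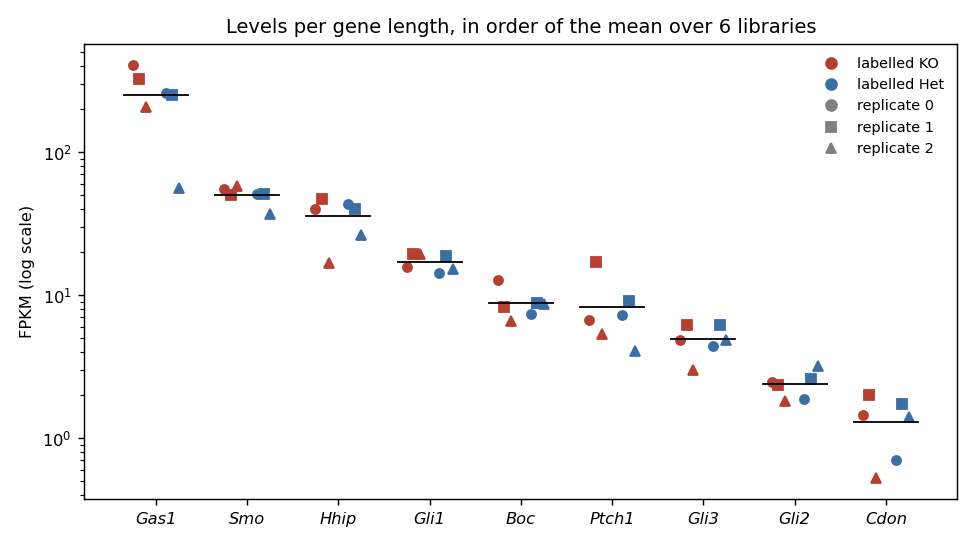
FPKM on a log scale (y axis) of the 9 genes in order of their mean over 6 libraries (black line), with KO libraries in red on the left and Het libraries in blue on the right of each gene. Gas1 leads at a mean of 251 FPKM and Cdon is last at 1.30 FPKM; the Gas1 value of Het replicate 2, 56.2 FPKM, lies at the level of Smo.

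Gli1 (chromosome 10, 127329882 to 127341974, minus strand, GENCODE M21 on GRCm38, the assembly also called mm10), an activator and a direct readout of pathway activity, was at 58.3, 70.6 and 55.2 CPM in KO replicates 0, 1 and 2, against 51.5, 66.9 and 47.4 CPM in Het replicates 0, 1 and 2. The groups overlapped, and replicate 1 was the highest library of both. Group means were 61.4 ± 8.12 CPM in KO and 55.3 ± 10.3 CPM in Het, with the SD over 3 libraries. The log2 fold change was 0.15 (SE 0.21, adjusted p = 0.981 in edgeR), and its 95% interval ran from 0.796-fold to 1.55-fold. Its spread over the 6 libraries was at the 16.4th percentile of all genes tested, the smallest of the 9 members.

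Gli3 (chromosome 13, 15463235 to 15730026, plus strand), the main repressor of the family in many tissues, was at 43.5, 53.9 and 34.1 CPM in KO, against 39.7, 52.6 and 56.6 CPM in Het. Its log2 fold change of -0.18 (SE 0.24) had an adjusted p of 0.981 in edgeR, and the 95% interval of 0.605-fold to 1.29-fold leaves out a doubling of this transcript. Gli2 (chromosome 1, 118834132 to 119053619, minus strand), the main activator downstream of Smo, was at 17.6, 16.5 and 10.3 CPM in KO, against 13.2, 17.7 and 19.3 CPM in Het. KO replicate 2 was the lowest and Het replicate 2 the highest library for both genes. The log2 fold change of Gli2 was -0.18 (SE 0.31, adjusted p = 0.981 in edgeR), and it became 0.03 without KO replicate 2.

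The sequence before the start of Gli2 is shown because it alone, of the 7 members with a promoter in the RefSeq table, holds the core of the site that Gli proteins bind. Positions and sequence are those of GRCm38.p6, chr1:119053620-119053869 on the minus strand, printed 5′ to 3′ up to the base before the start, with the core in capitals:
Gli2: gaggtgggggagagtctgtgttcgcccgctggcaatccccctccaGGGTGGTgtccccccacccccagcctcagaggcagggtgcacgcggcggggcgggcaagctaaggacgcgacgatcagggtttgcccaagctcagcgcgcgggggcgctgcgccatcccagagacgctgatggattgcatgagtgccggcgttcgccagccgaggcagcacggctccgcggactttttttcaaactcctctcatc
The full Gli consensus GACCACCCA (TGGGTGGTC on the other strand) was in none of the 7 members' windows of 250 bases and in 0.225% of all 32851 promoters of the table. The RefSeq promoters of Cdon (35451826 to 35452125), Ptch1 (63565686 to 63565985) and Gli3 (15463473 to 15463772) lie inside the GENCODE gene positions given here. For these genes the stretch just before the GENCODE start was therefore not searched. The RefSeq promoter of Gas1 (60177486 to 60177785) lies apart from its GENCODE start at 60177365, and the bases next to that start were not searched either. The shorter core ACCACCC, which lies inside the consensus and was searched on both strands (Gli2 holds its reverse complement), was in 1 of the 7 and in 3.92% of all promoters. Here it begins 205 bases before the start of Gli2. Such a match is a description of the letters and not of binding.

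Ptch1 (chromosome 13, 63508328 to 63573598, minus strand), the ligand receptor and a pathway target, was at 29.6, 71.6 and 21.3 CPM in KO, against 31.9, 36.9 and 16.8 CPM in Het. A single library, KO replicate 1, was high, and without it the sign turned. Group means were 40.8 ± 27.0 CPM in KO and 28.5 ± 10.5 CPM in Het, with the SD over 3 libraries. The log2 fold change was 0.52 (SE 0.46, adjusted p = 0.976 in edgeR), and it was -0.17 without KO replicate 1. Replicate 1 was the highest library of each group for Ptch1 and for Gli1, and Het replicate 2 was the lowest of all 6 for both.

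Hhip (chromosome 8, 79965851 to 80058006, minus strand), a membrane-bound decoy that binds the ligands and is itself a target, was at 382, 425 and 273 CPM in KO, against 424, 351 and 427 CPM in Het. KO replicate 2 was the only library under the lowest Het value. The log2 fold change was -0.16 (SE 0.22, adjusted p = 0.981 in edgeR) with a 95% interval of 0.640-fold to 1.26-fold, and it was 0.01 without KO replicate 2. At a minimum of 12592 counts per library, counting error was small beside the spread between libraries.

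The window before Hhip is printed for its cAMP response element TGACGTCA, the palindromic site of CREB, a factor that protein kinase A activates (GRCm38.p6, chr8:80058009-80058258, minus strand, 5′ to 3′ up to the base before the start, the element in capitals):
Hhip: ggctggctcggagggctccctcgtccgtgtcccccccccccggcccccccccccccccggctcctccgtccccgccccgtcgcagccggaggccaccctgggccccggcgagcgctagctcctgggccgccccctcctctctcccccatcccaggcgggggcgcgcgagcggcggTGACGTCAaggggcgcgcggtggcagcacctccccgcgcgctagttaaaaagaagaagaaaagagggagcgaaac
This motif reads the same on both strands, and it was looked for only after the sequences had been seen. It begins 75 bases before the start, and it was in 1 of the 7 members' windows and in 1.55% of all promoters. Beside it stand the values of Hhip above, which overlapped between the groups. As with Gli2, such a match describes letters and not binding, and a link to Pth1r was not tested.

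Smo (chromosome 6, 29735503 to 29761365, plus strand), the transducer that Ptch1 restrains, was at 218, 197 and 185 CPM in KO, against 196, 196 and 126 CPM in Het. The other libraries lay close together and Het replicate 2 was low. The means were 199.8 ± 16.7 CPM in KO and 173 ± 40.0 CPM in Het, with the SD over 3 libraries. The log2 fold change of 0.21 (SE 0.22, adjusted p = 0.976 in edgeR) was 0.03 without Het replicate 2.

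Gas1 (chromosome 13, 60174405 to 60177365, minus strand), a lipid-anchored surface protein that helps Ptch1 bind ligand, had the largest fitted difference of the 9 members, although Ptch1 exceeded it without KO replicate 0 (log2 fold change 0.73 for Ptch1 and 0.52 for Gas1) and with both replicate 2 libraries left out (0.56 and 0.55). It was at 1003, 708 and 543 CPM in KO replicates 0, 1 and 2, against 631, 536 and 154 CPM in Het replicates 0, 1 and 2. The lowest KO library lay under the highest Het library, so the groups overlapped, and Het replicate 2 was far under the other 5. The means were 751 ± 233 CPM in KO and 441 ± 253 CPM in Het (SD, n = 3 each).

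The log2 fold change of Gas1 was 0.77 (SE 0.46), with an unadjusted p of 0.131 and an adjusted p of 0.976 in edgeR's quasi-likelihood test. The 95% interval of 0.823-fold to 3.53-fold holds both no change and a tripling. An exact two-sided permutation test gave p = 0.2, where 3 against 3 libraries cannot go below 0.1. Without Het replicate 2 the log2 fold change was 0.37. Gas1 and Smo shared both extremes, with KO replicate 0 highest and Het replicate 2 lowest.

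Boc (chromosome 16, 44485049 to 44558897, minus strand) and Cdon (chromosome 9, 35421128 to 35507652, plus strand) encode related co-receptors of the immunoglobulin superfamily. Boc was at 59.0, 36.9 and 26.0 CPM in KO, against 33.1, 38.2 and 36.9 CPM in Het. The 3 Het libraries lay inside the range of the KO libraries. Its log2 fold change was 0.17 (SE 0.30, adjusted p = 0.981 in edgeR), and it was -0.18 without KO replicate 0. Cdon was at 11.02, 14.4 and 5.06 CPM in KO, against 5.28, 12.3 and 14.0 CPM in Het, so that each group had low and high libraries. Its log2 fold change was -0.05 (SE 0.49, adjusted p = 0.9996 in edgeR), and the 95% interval of 0.446-fold to 2.10-fold was the widest downwards of the 9 members. The lowest count of any member, 266 for Cdon in KO replicate 2, carries a counting error of 6.13%, below the difference between libraries.

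**Figure D3:**
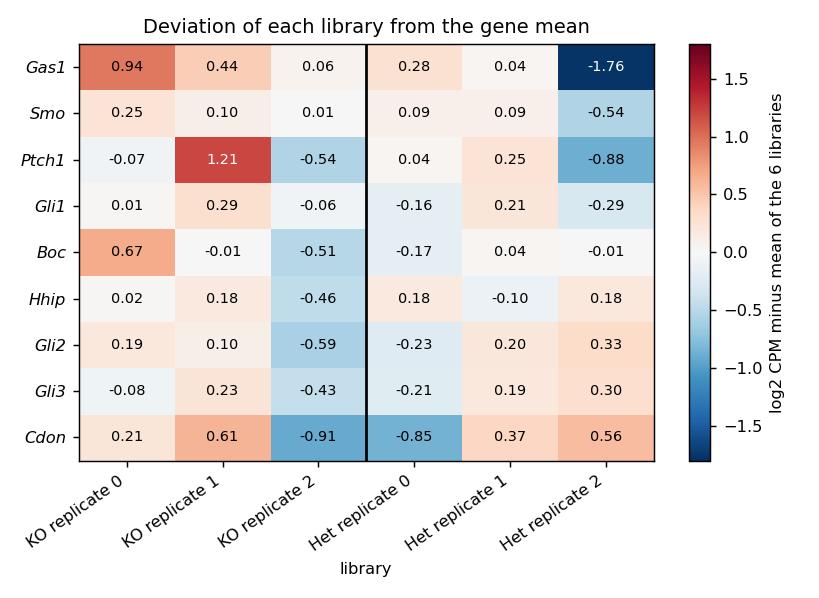
Colour and number give log2 CPM in a library minus the mean of that gene over the 6 libraries (rows: genes; columns: KO libraries left of the line, Het libraries right of it). The lowest cell of every row is in a replicate 2 column, KO replicate 2 for Boc, Hhip, Gli2, Gli3 and Cdon and Het replicate 2 for Gas1 (-1.76), Smo, Ptch1 and Gli1.

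The extremes of the members fell in particular libraries. For all 9 the lowest library was a replicate 2 library, KO replicate 2 for 5 genes and Het replicate 2 for 4. Over all genes tested the lowest library was KO replicate 2 for 12.8% and Het replicate 2 for 29.6%. For Gli2, Gli3 and Hhip the highest library was Het replicate 2, so the replicate 2 libraries of the groups held both extremes. With both of them left out, a choice made after seeing the data, the fitted values of 9 of 9 members and of 49.4% of all genes were higher in KO. Since KO replicate 2 was the lowest library for 5 members, leaving it out raises their KO values by construction, and nothing is read from this direction. In that fit 0 members passed in edgeR, and the smallest unadjusted p was 0.0297 for Gas1 (adjusted p = 0.698; log2 fold change 0.55).

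The profile of Gli1 was also set beside those of other genes. Of 11207 genes whose log2 CPM averaged 2 or more, the 5 with the highest Pearson correlation with Gli1 over the 6 libraries were Fam117b (r = 0.995), Celf1 (0.992), Slc35e3 (0.990), Aatk (0.987) and Cspp1 (0.986). All have KO replicate 1 as their highest and Het replicate 2 as their lowest library, as Gli1 does. With 6 points that share libraries, 40 genes had an r above 0.95.

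The ligands differed widely in level. Shh was at 46.9, 71.7 and 140 CPM in KO replicates 0, 1 and 2, against 43.5, 109 and 83.1 CPM in Het replicates 0, 1 and 2. The groups overlapped, and the log2 fold change was 0.13 (SE 0.43, adjusted p = 0.989 in edgeR). Ihh, the ligand of growth plate cartilage, had 133, 18 and 64 counts in KO, against 0, 78 and 0 counts in Het, so that libraries of both groups were near or at 0. Dhh had 0 estimated counts in all 6 libraries.

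Shh was measured beside epithelial genes, which these libraries hold in quantity. The 13 listed markers of dental epithelium summed to 5867 to 11782 CPM in KO and 5874 to 9081 CPM in Het, led by the enamel matrix genes Ambn and Amelx, and 0 of 13 passed in edgeR. Epcam, an adhesion molecule of epithelia that was picked out after its values were seen, was at 55.3, 75.1 and 147 CPM in KO, against 57.1, 122 and 118 CPM in Het. The 4 libraries highest in Shh were the same as those highest in Epcam and in the same order. Others of the 13 were ordered differently. Ambn was at 4781, 2120 and 6067 CPM in KO and 3441, 3894 and 1493 CPM in Het. Krt14 was at 202, 345 and 475 CPM in KO and 575, 265 and 259 CPM in Het, and so was highest in Het replicate 0, where Shh was lowest. The part of epithelial RNA in the Shh values was not tested.

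**Figure D4:**
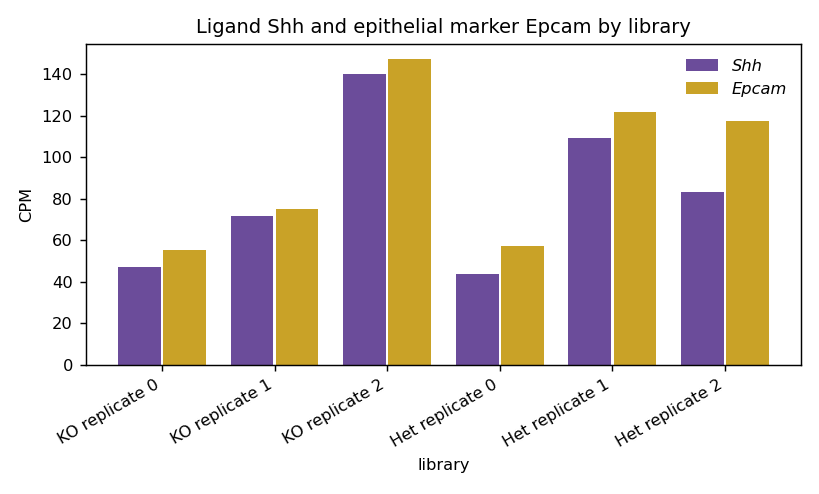
CPM (y axis, from 0) of Shh (purple) and Epcam (yellow) in the 3 KO libraries (left) and 3 Het libraries (right); the bars are to be compared between libraries, not between genes, since CPM are not scaled by length. Both are highest in KO replicate 2, at 140 and 147 CPM, and at their 2 lowest values in KO replicate 0 and Het replicate 0. Epcam was picked after its values were seen, and other listed epithelial markers were ordered differently.

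The wider pathway was described from a list of 47 genes, of which 45 were in the count table and 44 were tested. Dhh and the endocytic receptor Lrp2 were the genes not in the table. In edgeR 0 of 44 passed, 24 had higher and 20 lower fitted values in KO, and the median log2 fold change was 0.02 against -0.01 over all genes. An unadjusted p under 0.05 was found for 3 of the 44 (6.82%, against 4.29% of all genes), namely Disp1, Adrbk1 and Ift172. The groups did not overlap for 5 of 44 (11.4%, against 10.7% of all genes): Disp1, Adrbk1 and Mycn were higher and Tulp3 and Osr2 lower in every KO library. Both shares were near those of all genes.

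Among genes of ligand release, Disp1, which exports the lipid-modified ligand, was at 23.4, 19.0 and 20.1 CPM in KO, against 14.0, 15.5 and 11.7 CPM in Het. All KO values were above all Het values, and the log2 fold change of 0.60 (SE 0.25) had an adjusted p of 0.976 in edgeR. Scube3, of a family of secreted proteins that help release the ligand, was at 66.8, 73.6 and 53.7 CPM in KO, against 54.0, 65.0 and 20.98 CPM in Het.

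Of 10 ciliary regulators of Smo or the Gli factors, 7 had higher and 3 lower fitted values. Sufu, which binds and restrains Gli proteins, was at 27.2, 24.4 and 25.6 CPM in KO, against 18.8, 25.2 and 5.81 CPM in Het. As with Gas1, Smo and Scube3, Het replicate 2 was the low library. Adrbk1, which encodes the kinase GRK2 that phosphorylates Smo, was at 39.3, 30.4 and 33.1 CPM in KO, against 27.0, 22.7 and 23.6 CPM in Het (log2 fold change 0.49, SE 0.21, adjusted p = 0.976 in edgeR). Of the kinases and ubiquitin ligase parts that mark Gli proteins for processing, 1 of 5 had a higher and 4 of 5 a lower fitted value, all within 0.17 of 0 on the log2 scale. Btrc was at 53.9, 45.7 and 53.1 CPM in KO, against 47.1, 47.2 and 77.3 CPM in Het, and Gsk3b at 97.2, 110 and 96.0 CPM in KO, against 91.1, 118 and 117 CPM in Het.

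Of 10 genes of cilium assembly, 5 had higher and 5 lower fitted values. Ift172, a subunit of the transport complex that builds cilia, was at 16.8, 19.7 and 15.0 CPM in KO, against 17.1, 40.2 and 35.1 CPM in Het. Het replicate 0 lay among the KO libraries, and the log2 fold change of -0.84 (SE 0.33) had an adjusted p of 0.976 in edgeR. Rpgrip1l, of the ciliary transition zone, was at 6.19, 9.56 and 6.85 CPM in KO, against 2.99, 6.40 and 6.01 CPM in Het.

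Of 12 other genes described as Hedgehog targets in various tissues, 11 were tested, of which 5 had higher and 6 lower fitted values. Mycn, a transcription factor of proliferating cells, was at 18.7, 19.5 and 43.9 CPM in KO, against 14.7, 17.6 and 14.6 CPM in Het, with a log2 fold change of 0.81 (SE 0.36, adjusted p = 0.976 in edgeR) that was 0.29 without KO replicate 2. Osr2, a transcription factor of tooth and palate mesenchyme, was at 215, 204 and 187 CPM in KO, against 227.5, 244 and 327 CPM in Het, a log2 fold change of -0.40 (SE 0.20, adjusted p = 0.976 in edgeR). Neither passed.

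**Figure D5:**
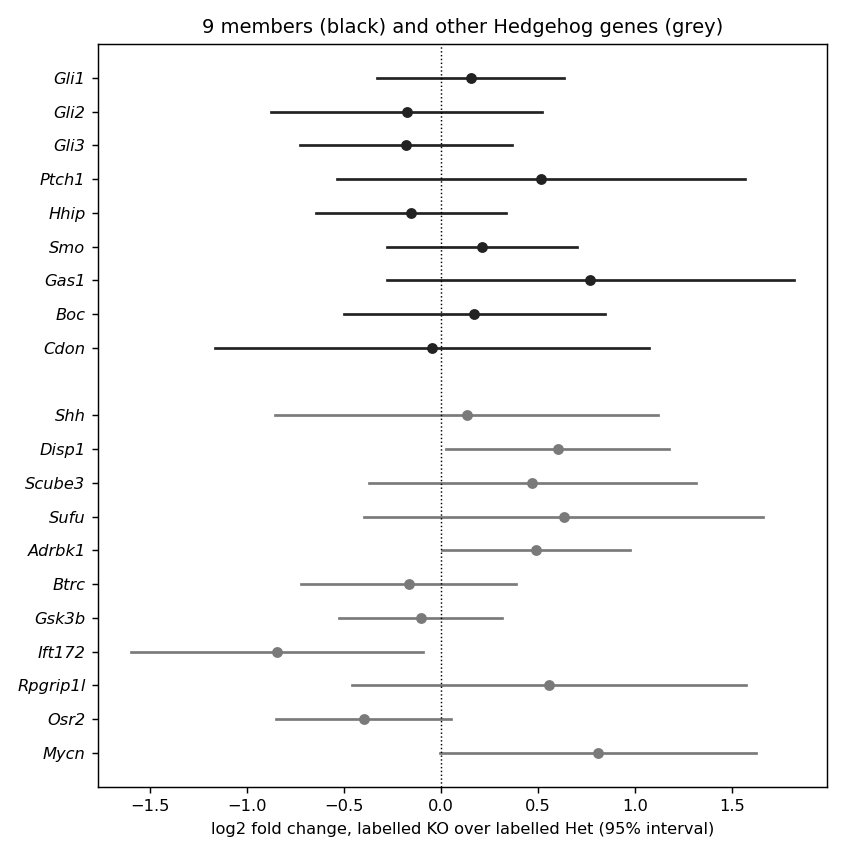
Log2 fold change (x axis, KO over Het) with its 95% interval from edgeR's quasi-likelihood fit for the 9 members (black) and other Hedgehog genes (grey). Shown in grey are the tested ones named in the text, except Ihh, Tulp3, Foxf1a and Foxf2. The intervals of all 9 members cross 0; those of Disp1, Adrbk1 and Ift172 do not before adjustment over 14632 genes.

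Marker genes of other cell types were described by how many had a higher fitted value in KO, beside 49.0% of all genes tested, and by their summed CPM. In bulk RNA, fewer cells of a type and less RNA per cell cannot be told apart. Genes of a list can move together between libraries, so such counts are not counts of independent results. None of these genes was called in edgeR. Where sums are said below not to overlap, the groups of single genes did not overlap for 10.7% of all genes tested. Several lists were looked at.

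A higher fitted value in KO was found for 9 of 9 osteoblast genes and for 13 of 13 macrophage and leukocyte genes. It was found for 2 of 8 tested genes of pericytes and smooth muscle, 2 of 8 endothelial, 1 of 6 odontoblast and pulp, 3 of 4 erythroid, 2 of 5 Schwann and nerve and 7 of 13 epithelial genes. The osteoblast genes summed to 12672 to 20848 CPM in KO and 4970 to 11969 CPM in Het, and these sums did not overlap. Ibsp, which encodes bone sialoprotein, led that sum. It was at 16424, 9714 and 12520 CPM in KO, against 4072, 3112 and 10458.5 CPM in Het, and overlapped between the groups on its own. Without Ibsp the sums were 2958 to 4423 CPM in KO and 1510 to 3011 CPM in Het, and those overlapped.

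Genes of pericytes and smooth muscle summed to 695 to 809 CPM in KO and 991 to 1164 CPM in Het, and endothelial genes to 14.8 to 23.9 CPM in KO and 24.0 to 49.6 CPM in Het. These groups did not overlap, with or without the leading gene of each list (Acta2 and Egfl7). The full endothelial sums were nearly touching, at 23.94 CPM for the highest KO and 23.996 CPM for the lowest Het library. After Acta2 the largest was Tagln, at 95.5, 83.1 and 83.9 CPM in KO, against 146, 148 and 210 CPM in Het. The pericyte marker Cspg4 went the other way with overlap, at 80.4, 68.0 and 32.5 CPM in KO, against 47.5, 34.2 and 18.8 CPM in Het. Macrophage and leukocyte genes, of which Cd3e was not in the table, summed to 38.8 to 193 CPM in KO and 23.7 to 122 CPM in Het. Schwann and nerve genes summed to 195 to 268 CPM in KO and 189 to 637 CPM in Het, and erythroid genes to 43.4 to 129 CPM in KO and 32.4 to 103 CPM in Het. Odontoblast and pulp genes summed to 647 to 1015 CPM in KO and 650 to 938 CPM in Het. Without Smoc2, their leading gene, the sums were 300.4 to 706 CPM in KO and 209 to 289 CPM in Het, and did not overlap. Dmp1, the 1 of the 6 with a higher fitted value in KO, led those sums. It was at 536, 248 and 138 CPM in KO, against 72.4, 29.0 and 84.8 CPM in Het. The other listed odontoblast and pulp genes had lower fitted values in KO. Sums without a leading gene were added after seeing the data. The part of these cells in the values of the Hedgehog genes was not tested.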

How the data were processed

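RNA-seq libraries of sorted dental follicle cells were analysed from the authors' deposited tables. Per the labels' protocols, SMART-Seq v4 gave the cDNA and Nextera XT the sequencing libraries. Per the submitters' processing notes, the tools were TopHat2 2.0.13, Bowtie2 2.2.1, HTSeq, Cufflinks, Cuffdiff and DESeq2 with mm10; no source used here gives their roles, the annotation or whether counting used strand. Raw counts per gene, deposited by the authors, were the main data. A second deposited table holds estimated counts, of which 1.66% were not whole; they were rounded, and for 8 of the 9 members they equalled the counts (Gli1 differed by at most 0.0931%). Another deposited table holds FPKM values computed by the authors.

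Groups and replicate numbers came from sample titles. The counts were fitted in R 4.3.3 with edgeR 4.0.16 (TMM, default low-count filter, quasi-likelihood test, two-sided, Benjamini-Hochberg over all genes tested, threshold 0.05). Standard errors came from the F statistic and 95% intervals from the t distribution of the fit. CPM are TMM-scaled. Alternatives used DESeq2 1.42.0 and limma 3.58.1; FPKM were tested as log2(FPKM + 1) and log2(FPKM + 0.1), which understates changes of low genes. The script was tested on simulated data. The members and lists were chosen with earlier results of these data known. Named were the 9 members, Pth1r, the 3 ligands, the 2 genes of smallest unadjusted p in each role of the pathway list, the 5 genes most like Gli1, and the leading markers, except 1 gene that is not reported here; Foxf1, in the table as Foxf1a, was matched through RefSeq. Epcam, Krt14, Pthlh, Tulp3, Cspg4, Foxf1a, Foxf2, Cd3e and Myl3 fall outside that rule and were chosen after their values were seen. Promoter sequences are RefSeq's (GRCm38.p6), for 7 of 9 members; gene positions are GENCODE M21's.

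Antisense or neighbouring genes share exonic bases with Gli1 (265 and 62), Gas1 (589), Gli3 (188), Hhip (175), Shh (446 and 361) and Pth1r (95, with Myl3), and without a known strand setting their reads cannot be told apart. Reads of amplified cDNA without molecular identifiers are not independent molecules, so counting errors cover counting only.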

Additional observations from a re-analysis of the deposited data

How the results depend on the processing

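In all 17 alternatives 0 of the 9 members and 0 of the other Hedgehog genes passed. The count over all genes was 0 in the main fit and 1 under the stricter filter, in limma-voom with quality weights, with log2(FPKM + 1) filtered and unfiltered and with log2(FPKM + 0.1), and 87 in DESeq2; it ranged from 0 to 1 when single libraries were left out. The number of members with a higher fitted value in KO, 5 in the main fit, ranged from 4 to 8 over the fits without 1 library and was 9 with both replicate 2 libraries left out. With the replicate number as a block 0 members and 0 genes passed. The Gas1 log2 fold change in that fit was 0.95 (unadjusted p = 0.0168, adjusted p = 0.797 in edgeR's quasi-likelihood test). Same-numbered KO and Het libraries deviated from their group means with correlations of 0.169, 0.0746 and 0.0694. These lay above the correlations of all differently numbered libraries, which ran from -0.122 to 0.0320. The labels do not say whether the numbers mark pairs, so the main fit has no block and pairing stays unsettled. The smallest adjusted p of any member over all alternatives was 0.691, for Gas1 without Het replicate 0.

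Some signs turned, and the cause was not tested. In limma-voom Cdon was 0.28, Shh -0.01 (-0.0050) and Btrc 0.063 (log2). Cdon was 0.0010 with log2(FPKM + 1), filtered or not. With both replicate 2 libraries left out Gli2 was 0.14, Gli3 0.079, Hhip 0.062, Cdon 0.54, Shh -0.37 and Btrc 0.081. Over the fits without 1 library the ranges were -0.33 to 0.027 for Gli2, -0.17 to 0.83 for Ptch1, -0.29 to 0.0099 for Hhip, -0.18 to 0.41 for Boc, -0.39 to 0.28 for Cdon, -0.41 to 0.45 for Shh and -0.29 to 0.11 for Btrc. The ones that kept their sign in all 17 alternatives were Gli1, Smo and Gas1 among the members.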

Other observations

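The authors' FPKM per count shifted together in the replicate 2 libraries of both groups. FPKM divided by CPM for Hhip was 0.104, 0.111 and 0.0615 in KO replicates 0, 1 and 2, and 0.103, 0.113 and 0.0615 in Het replicates 0, 1 and 2. Gli3 and Cdon were likewise lower in replicate 2, at 0.0879 and 0.103 in KO and 0.0863 and 0.1002 in Het, while Gli1, Gli2 and Smo were higher, with Gli1 at 0.348 in KO replicate 2 and 0.324 in Het replicate 2 against 0.269 to 0.282 elsewhere. Over 10946 genes with a mean of at least 4 CPM and at least 0.5 FPKM in each library, the first principal component of this ratio held 93.6% of its variance and scored 29.2 and 27.0 in KO and Het replicate 2 against -16.8 to -10.5 in the other 4 libraries. For Hhip the FPKM values put both replicate 2 libraries lowest (16.8 in KO and 26.2 in Het) where the CPM put Het replicate 2 highest. The source of this shift was not tested.

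Foxf2 and Foxf1a, forkhead genes of Hedgehog-responsive mesenchyme outside the naming rule, were at 283, 237 and 218 CPM and at 432, 318 and 318 CPM in KO, against 259, 269 and 138 CPM and 371, 301 and 556 CPM in Het, so that Het replicate 2 was lowest for the one and highest for the other.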
